A study of Mus musculus with 8 samples.

Results

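The tumour suppressor p53 and a group of genes around it, most of them tied to growth arrest or cell death, were followed in mouse embryonic stem cells grown on 2 coatings in 2 media. The group was set by name and holds 10 of the 22963 genes with a RefSeq transcript row: Trp53, Mdm2, Ccng1, Bax, Bbc3, Gadd45a, Gadd45b, Gadd45g, Sesn2 and Zmat3. The cells were the male C57BL/6J line Bruce 4, wild type in all groups, kept for 2 weeks in each condition, and RNA was taken from them for sequencing. There were 4 groups with 2 libraries each: LN511 (laminin-511) coating with 2i medium, gelatin coating with 2i medium, LN511 coating with Std medium and gelatin coating with Std medium. The 2i medium is named for its inhibitors of the kinases MEK and GSK3, under which such cells stay naive. What the Std medium contains is not given in the sources used here. The 8 libraries come from 1 cell line, and the design text calls the libraries of a group biological replicates. Nothing says whether they were separate cultures, so p-values measure the spread between these libraries, which may be technical.

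p53 is a transcription factor that cells make steadily and that the ubiquitin ligase Mdm2 keeps low by sending it for degradation. After DNA damage and other stress p53 protein accumulates and switches on genes that halt the cell cycle, repair DNA or start apoptosis, and Mdm2 is itself such a target, which closes a feedback loop. Because the control is largely on the protein, the mRNA level of Trp53 is not a measure of p53 activity. The GADD45 proteins are small stress proteins that bind cell cycle and kinase partners, and only some of their induction runs through p53. Mouse embryonic stem cells are known for high Trp53 mRNA.

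A level here is the sum of FPKM (fragment numbers corrected for transcript length and for library size) over the RefSeq transcripts of a gene. Each fold change was taken between group means of log2(FPKM + 1), which makes it too small for low genes, and is given with its standard error (SE). A gene was called where the two-sided limma test, adjusted by the Benjamini-Hochberg method over 10278 genes, gave a p below 0.05. The files hold no read counts. With the lowest FPKM values above 0, times transcript length, taken as 1 fragment, depth was about 2.33e+06 to 2.79e+06 fragments per library. Ratios of low values between libraries put their relative depths within 1.19-fold of each other. Low values thus rest on few fragments. The embryonic stem cell label was borne out by 8 of 9 marker genes with a row, all at 1 FPKM or more in each group, led by Pou5f1 at 1177, 1059, 1093 and 982 FPKM in LN511 2i, gelatin 2i, LN511 Std and gelatin Std. Summed markers of fibroblasts, the cells often used as feeders, lay between 1.54 and 2.19 FPKM in the 2i libraries and between 3.54 and 5.57 FPKM in the Std libraries. Summed mesendoderm markers were 5.13 to 11.4 FPKM in 2i and 0.673 to 1.95 FPKM in Std. Primitive endoderm markers summed to 3.07 to 9.73 FPKM in 2i and 2.96 to 9.27 FPKM in Std, trophoblast markers to 17.8 to 27.8 and 16.6 to 31.4 FPKM, and neuroectoderm markers to 8.33 to 10.1 and 12.1 to 24.2 FPKM. Of each of these lists 1 of 8 fibroblast, 1 to 3 of 8 primitive endoderm, 3 to 5 of 7 trophoblast, 2 to 3 of 6 neuroectoderm and 0 to 3 of 5 mesendoderm genes averaged 1 FPKM or more in a group, and Lum, Postn, Neurog2 and Mesp1 were at 0 in all groups. Their part in the results below was not tested. In bulk RNA, fewer cells expressing a gene and less of its RNA per cell cannot be told apart.

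Of the 10 genes, 9 passed the filter of 1 FPKM in at least 2 libraries. Sesn2, which encodes a stress protein that restrains mTORC1, was listed at 0 in all 8 libraries. A 0 in these files can be a failed estimate, so no level is given for it. Most calls among the others were for the medium. In 2i against Std, 6 of 9 tested genes were called on gelatin (2 higher and 4 lower), where 15.4% of all tested genes were called (8.2% higher and 7.2% lower), and 5 of 9 on LN511 (1 higher and 4 lower), where 18.5% were called (8.58% higher and 9.95% lower). Gadd45g, Gadd45a and Bbc3 were lower and Trp53 was higher in 2i on both coatings. Fewer were called for the coating. In Std medium 1 of 9 was called in LN511 against gelatin, Gadd45a, where 2.1% of all tested genes were called (1.54% higher and 0.564% lower), and in 2i none was, where 0.0195% were called (2 of the 9 had an unadjusted limma p below 0.05 there, and no other setting or left-out library called any).

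**Figure D1:**
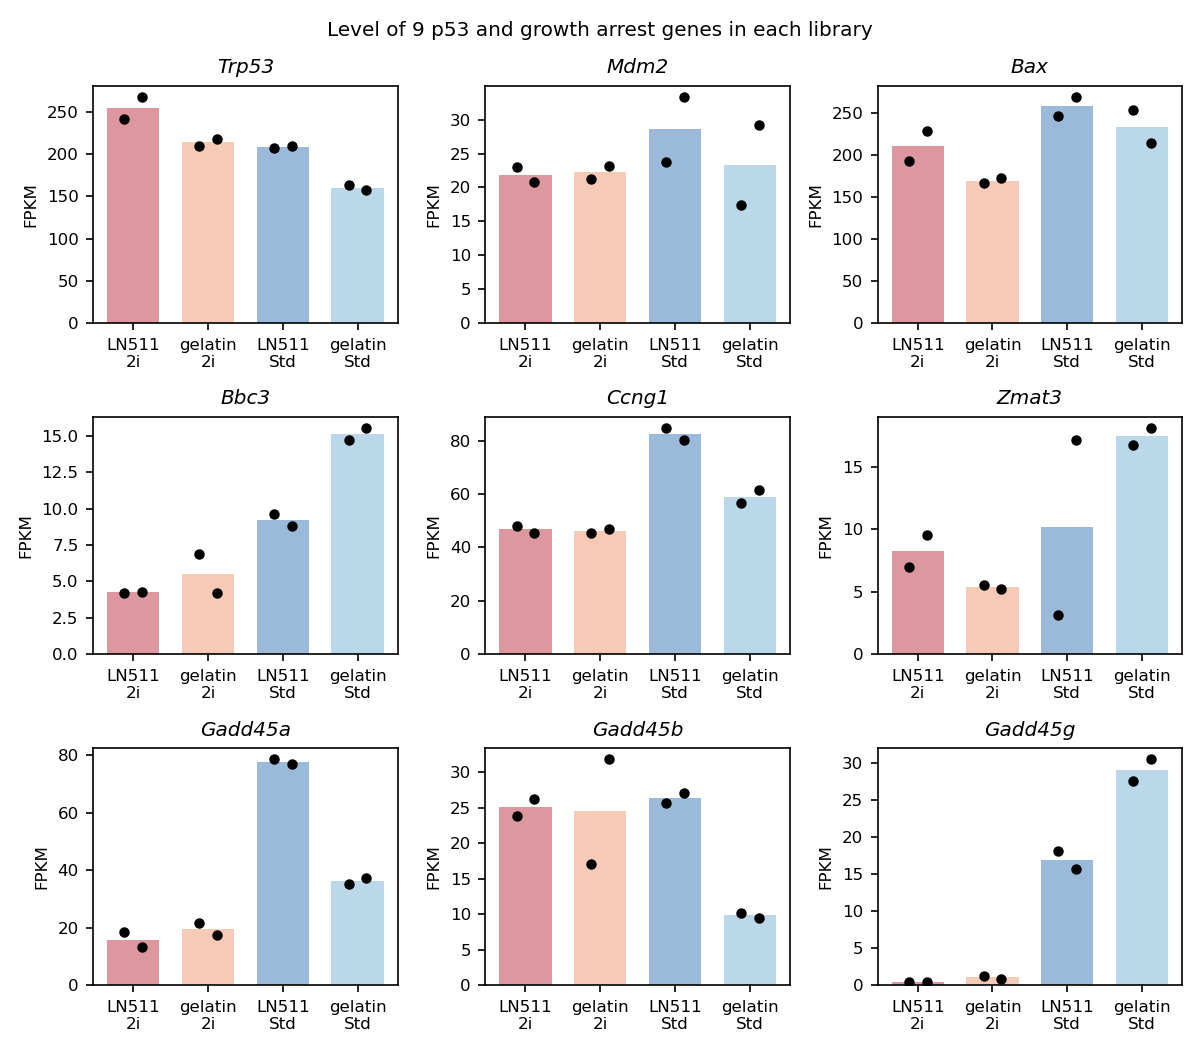
FPKM of the 9 genes with values above 0 in each of 8 libraries (points) with the group mean (bars, from 0), for LN511 2i, gelatin 2i, LN511 Std and gelatin Std. Gadd45g lay at 1.28 FPKM or less in the 4 2i libraries and at 15.8 FPKM or more in the 4 Std libraries, while Trp53 was lowest in the gelatin Std libraries, at 157 and 163 FPKM.

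Trp53 (mm10 chromosome 11, 69580348 to 69591873) was among the most abundant of the group. It was at 242 and 267 FPKM in LN511 2i, 209.6 and 218 FPKM in gelatin 2i, 207 and 209.4 FPKM in LN511 Std and 163 and 157 FPKM in gelatin Std. The LN511 2i libraries were the highest and the gelatin Std libraries the lowest, with no overlap between them and the rest, and the gelatin 2i libraries lay just above the LN511 Std libraries. In 2i Trp53 rose on gelatin by 0.41 on the log2 scale (SE 0.07, limma adjusted p = 0.014), a ratio of mean levels of 1.33, and on LN511 by 0.29 (SE 0.07, limma adjusted p = 0.0408), a ratio of 1.22. In LN511 against gelatin it was higher by 0.37 (SE 0.07) in Std, which missed the threshold (limma adjusted p = 0.0617), and by 0.25 (SE 0.07) in 2i (limma adjusted p = 0.282). The call on gelatin was lost without any 1 of the 4 gelatin libraries (limma adjusted p 0.0533 to 0.0802). The call on LN511 was lost without LN511 2i replicate 2, either LN511 Std library or any gelatin library (0.0637 to 0.152), and with the 4 LN511 libraries alone (0.11). The coating difference in Std passed without either LN511 2i library (0.0411).

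The sum for Trp53 came from 2 RefSeq transcripts. NM_011640 made up 83.5% and 86.1% in LN511 2i, 83.1% and 86.0% in gelatin 2i, 83.4% and 81.5% in LN511 Std and 81.4% and 80.3% in gelatin Std. The other, NM_001127233, lay between 30.3 and 39.98 FPKM in all 8 libraries. Most of the FPKM spread between groups was in the main transcript, which also made up most of every sum. That alone does not show that it changed more in proportion.

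Mdm2 (chromosome 10, 117688875 to 117710758), the p53 ligase and target, was called in no comparison. It was at 23.0 and 20.7 FPKM in LN511 2i, 21.3 and 23.2 FPKM in gelatin 2i, 23.8 and 33.3 FPKM in LN511 Std and 17.4 and 29.3 FPKM in gelatin Std. The Std libraries of each coating lay far apart and the 2i libraries close together. The log2 difference of 2i minus Std was -0.35 (SE 0.26) on LN511 and -0.02 (SE 0.26) on gelatin, with limma adjusted p of 0.405 and 0.973. At that SE a change as small as that of Trp53 would not have been detectable.

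Its 2 RefSeq transcripts were divided unevenly between libraries. NM_001288586 was at 9.71 and 10.9 FPKM in LN511 2i, 10.4 and 19.4 FPKM in LN511 Std and 7.05 FPKM in gelatin Std replicate 1. It was listed at 0 in both gelatin 2i libraries and in gelatin Std replicate 2. In gelatin Std replicate 1 it made up 40.6% of the sum. As a 0 can be a failed estimate, no comparison was made between the transcripts.

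**Figure D2:**
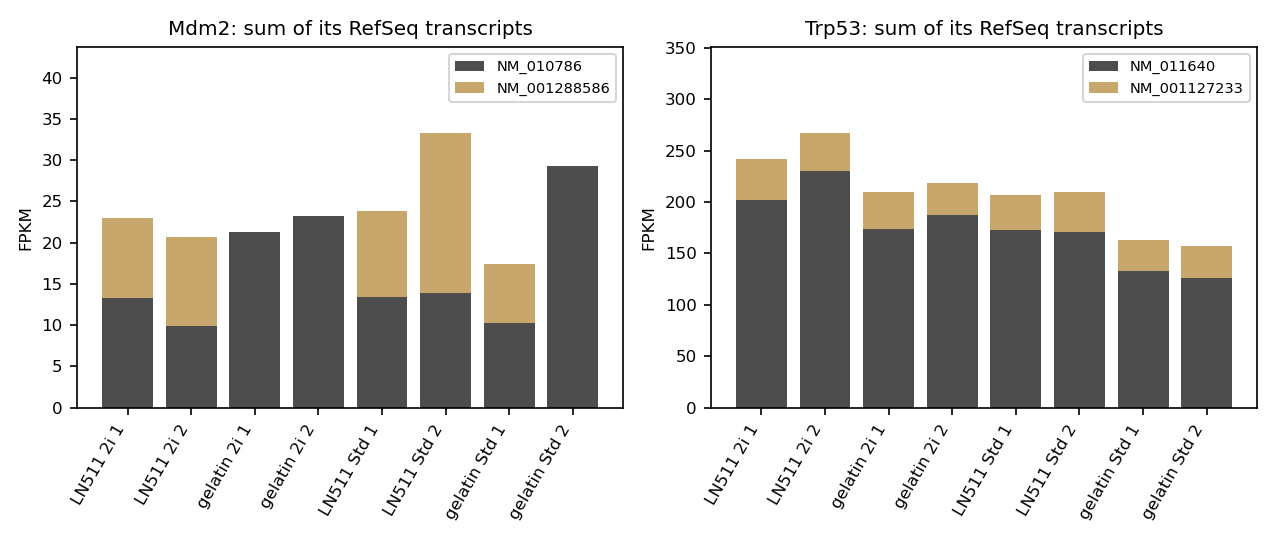
FPKM of the RefSeq transcripts of Mdm2 (left) and Trp53 (right), stacked, in each of 8 libraries. The second Mdm2 transcript is listed at 0 in 3 gelatin libraries, while the second Trp53 transcript stays between 30.3 and 39.98 FPKM.

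The Mdm2 partner Mdm4, which binds p53 and masks its activation domain, was measured beside it. It was at 40.3 and 31.9 FPKM in LN511 2i, 35.7 and 24.6 FPKM in gelatin 2i, 13.2 and 11.8 FPKM in LN511 Std and 20.2 and 28.4 FPKM in gelatin Std. On LN511 it rose in 2i by 1.45 on the log2 scale (SE 0.24, limma adjusted p = 0.00949). On gelatin the 2i and Std libraries overlapped (0.30, SE 0.24, limma adjusted p = 0.469), and the interaction did not pass (limma adjusted p = 0.265).

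Bax and Bbc3 are the apoptosis genes of the group. Bax (chromosome 7, 45461695 to 45466903), the pore-forming effector at the mitochondrial membrane, was at 193 and 228 FPKM in LN511 2i, 166 and 172 FPKM in gelatin 2i, 246 and 268 FPKM in LN511 Std and 252 and 213 FPKM in gelatin Std. On each coating the Std libraries were above the 2i libraries, though gelatin Std replicate 2 was below LN511 2i replicate 2. Bax fell in 2i on gelatin by 0.46 on the log2 scale (SE 0.12, limma adjusted p = 0.0432). On LN511 the difference was -0.29 (SE 0.12) and missed the threshold (limma adjusted p = 0.134). The gelatin call was lost without any 1 gelatin library or either LN511 Std library (limma adjusted p 0.0592 to 0.185), and with a pseudocount of 0.1 (0.0506), no filter on low values (0.0635), doubtful zeros kept (0.0561) or the 4 gelatin libraries alone (0.0722). Between LN511 and gelatin its log2 difference was 0.15 in Std and 0.31 in 2i (SE 0.12 each, limma adjusted p of 0.595 and 0.363).

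Bbc3 (chromosome 7, 16308398 to 16318334) encodes PUMA, a protein that frees Bax by binding the BCL2 survival proteins. It was at 4.18 and 4.28 FPKM in LN511 2i, 6.85 and 4.21 FPKM in gelatin 2i, 9.65 and 8.82 FPKM in LN511 Std and 14.7 and 15.5 FPKM in gelatin Std. Every Std library was above every 2i library, and within Std the gelatin libraries were above the LN511 libraries. In 2i Bbc3 fell on gelatin by 1.33 on the log2 scale (SE 0.24, limma adjusted p = 0.0145) and on LN511 by 0.97 (SE 0.24, limma adjusted p = 0.0368). In LN511 against gelatin the difference in Std was -0.66 (SE 0.24) and missed the threshold (limma adjusted p = 0.256). The gelatin call was lost without gelatin 2i replicate 2 or either gelatin Std library (limma adjusted p 0.0553 to 0.0749). The LN511 call was lost without any 1 LN511 library or either gelatin Std library (0.0628 to 0.149). With the 4 libraries of a comparison alone both were lost (0.0642 on gelatin and 0.0634 on LN511), and the LN511 call also with no filter (0.0511) or doubtful zeros kept (0.0512).

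Ccng1 (chromosome 11, 40748552 to 40755309) encodes cyclin G1, a p53 target that guides a phosphatase to Mdm2. It was at 48.2 and 45.4 FPKM in LN511 2i, 45.5 and 47.0 FPKM in gelatin 2i, 84.7 and 80.4 FPKM in LN511 Std and 56.7 and 61.4 FPKM in gelatin Std. The 4 2i libraries were within 3 FPKM of each other and below all Std libraries, and in Std the LN511 libraries were the higher. Ccng1 fell in 2i on LN511 by 0.81 on the log2 scale (SE 0.09, limma adjusted p = 0.00244), a call that held without each library in turn. On gelatin the difference of -0.34 (SE 0.09) missed the threshold (limma adjusted p = 0.0518), and with quantile normalization it passed (0.0366). In LN511 against gelatin in Std the difference was 0.48 (SE 0.09, limma adjusted p = 0.0598), and in 2i it was 0.02 (SE 0.09, limma adjusted p = 0.973). The interaction did not pass (limma adjusted p = 0.252).

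Zmat3 (chromosome 3, 32334792 to 32365665), a p53 target that encodes an RNA-binding zinc finger protein, was at 6.95 and 9.55 FPKM in LN511 2i, 5.55 and 5.18 FPKM in gelatin 2i, 3.16 and 17.1 FPKM in LN511 Std and 16.8 and 18.1 FPKM in gelatin Std. LN511 Std replicate 1 was the lowest of all 8 libraries and replicate 2 was close to the gelatin Std libraries. The libraries of no other group lay so far apart. On gelatin the 2i libraries lay far below the Std libraries (log2 difference -1.53, SE 0.61) but missed the threshold (limma adjusted p = 0.148). Without LN511 Std replicate 1 the same difference passed (limma adjusted p = 0.0129), as it did without LN511 Std replicate 2 (0.0156) and with the 4 gelatin libraries alone (0.0255). On LN511 the log2 difference was 0.08 (SE 0.61), but -0.98 without LN511 Std replicate 1 (limma adjusted p = 0.0792) and 1.14 without replicate 2 (0.0656). LN511 minus gelatin was -1.09 in Std and 0.53 in 2i (SE 0.61 each, limma adjusted p of 0.452 and 0.788). The value in Std was -0.0242 without LN511 Std replicate 1 (limma adjusted p = 0.989) and -2.15 without replicate 2 (0.0658), so no direction is given for Zmat3 on LN511.

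Of the 3 GADD45 genes, Gadd45a and Gadd45g were called lower in 2i on both coatings. Gadd45b was called higher in 2i, on gelatin only. Gadd45a was also called higher on LN511 than on gelatin in Std. The promoters of the 3 genes, from RefSeq on GRCm38.p6, are shown because Gadd45b was called in the opposite direction to Gadd45a and Gadd45g on gelatin. Each window runs 5′ to 3′ on the gene's strand from 250 bases before to 50 bases after the start: chr6:67037358-67037657 (minus strand), chr10:80929841-80930140 (plus strand) and chr13:51846425-51846724 (plus strand). Capitals mark the p53 half-site consensus (10 bases), the TATA box by its letters TATAAA, the CCAAT box by its name's own letters and the E-box by the letters CACGTG, each on either strand.
Gadd45a: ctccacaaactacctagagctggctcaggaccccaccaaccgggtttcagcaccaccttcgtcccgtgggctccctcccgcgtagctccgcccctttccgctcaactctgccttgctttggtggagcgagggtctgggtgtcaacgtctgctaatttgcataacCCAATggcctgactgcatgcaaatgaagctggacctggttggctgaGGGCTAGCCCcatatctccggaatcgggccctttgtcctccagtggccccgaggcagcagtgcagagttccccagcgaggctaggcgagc
Gadd45b: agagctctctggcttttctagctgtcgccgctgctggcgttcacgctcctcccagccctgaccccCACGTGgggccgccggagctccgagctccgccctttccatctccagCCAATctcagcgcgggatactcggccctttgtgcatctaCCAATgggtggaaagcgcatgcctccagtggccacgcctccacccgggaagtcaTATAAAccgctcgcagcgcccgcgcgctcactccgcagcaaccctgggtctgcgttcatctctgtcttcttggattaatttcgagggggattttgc
Gadd45g: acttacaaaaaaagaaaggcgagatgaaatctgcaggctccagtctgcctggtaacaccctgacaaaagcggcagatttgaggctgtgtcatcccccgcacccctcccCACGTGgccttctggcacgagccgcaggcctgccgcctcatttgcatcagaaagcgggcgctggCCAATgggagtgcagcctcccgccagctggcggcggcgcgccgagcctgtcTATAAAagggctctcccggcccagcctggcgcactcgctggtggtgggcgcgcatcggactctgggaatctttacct
Gadd45b and Gadd45g hold a TATAAA shortly before the start and a CACGTG farther out, and Gadd45a holds neither. A CCAAT is in all 3. Only Gadd45a of the 3 holds a p53 half-site, GGGCTAGCCC.

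Of the 32851 windows of the table, 13.6% hold TATAAA, 37.4% CCAAT, 7.15% CACGTG and 8.36% a p53 half-site. The group has 11 windows in 9 genes, with Sesn2 among them and no window for Zmat3, which was not searched. Of the 11 windows 5 hold a p53 half-site, in Trp53 (GGACTTGCCC), Mdm2 (GAACTTGCCT), Ccng1 (GGGCAAGCCT), Bax (AGGCAAGCTT) and Gadd45a. In 2i Trp53 was called higher and Gadd45a lower on both coatings, Ccng1 was called lower on LN511 and Bax lower on gelatin, and Mdm2 was not called. Whether the half-sites have a part in these levels was not tested. Another 4 of 8 motifs searched on both strands were GGGCGG (35.7% of windows), TGACGTCA (1.79%), the NF-kB site consensus (1.63%) and TGATGCAA (0.895%). Of these, Gadd45a holds GGGCGG, Gadd45b holds GGGCGG and Gadd45g holds TGATGCAA, each on the opposite strand. A match is a description of letters, not of a bound site.

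Gadd45g (chromosome 13, 51846675 to 51848475) had the largest change of the group. It was at 0.452 and 0.460 FPKM in LN511 2i, 1.28 and 0.804 FPKM in gelatin 2i, 18.1 and 15.8 FPKM in LN511 Std and 27.6 and 30.5 FPKM in gelatin Std. No 2i library came near a Std library. In 2i it fell by 3.62 on the log2 scale on LN511 (SE 0.23, limma adjusted p = 0.000269) and with a log2 fold change of -3.89 on gelatin (SE 0.23, limma adjusted p = 0.00022), and both calls held without each library in turn. With a pseudocount of 0.1 the log2 fold changes were -4.93 on LN511 and -4.70 on gelatin (limma adjusted p of 0.000459 and 0.000647). The 2i values are near the smallest step that the files allow. Corrected for relative depth they stood at 1.00, 1.00, 2.99 and 1.99 times the lowest of them, which would be 1, 1, 3 and 2 fragments if that step is 1 fragment. On the same scale the Std values were 44.6 and 39.4 on LN511 and 58.1 and 68.3 on gelatin, and all were rounded to whole fragments. Counted so, 2i over Std was 0.0269 on LN511 (2 against 84 fragments, exact 95% interval 0.00321 to 0.1). On gelatin it was 0.0358 (5 against 126, interval 0.0114 to 0.0857). The intervals cover counting error only. In LN511 against gelatin the levels were lower in both media, by 0.75 (SE 0.23) in Std and by 0.48 (SE 0.23) in 2i on the log2 scale, and neither difference passed (limma adjusted p of 0.185 and 0.472). The pseudocount shrinks the value in 2i: with 0.1 in place of 1 it was -1.01 (SE 0.32, limma adjusted p = 0.321), and mean levels there were 2.29-fold lower on LN511, from values of 1 to 3 steps per library.

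Gadd45a (chromosome 6, 67035096 to 67037407) was at 18.4 and 13.3 FPKM in LN511 2i, 21.6 and 17.5 FPKM in gelatin 2i, 78.6 and 77.0 FPKM in LN511 Std and 35.1 and 37.2 FPKM in gelatin Std. The LN511 Std libraries stood apart at the top, the gelatin Std libraries followed, and the 2i libraries of both coatings overlapped at the bottom. In 2i Gadd45a fell on LN511 by 2.25 on the log2 scale (SE 0.18, limma adjusted p = 0.000546), a 4.92-fold higher mean level in Std, and on gelatin by 0.86 (SE 0.18, limma adjusted p = 0.0228), where the mean level in Std was 1.84-fold higher. It was the only gene of the group called for the coating: in Std it was higher on LN511 than on gelatin by 1.09 (SE 0.18, limma adjusted p = 0.0362), a ratio of mean levels of 2.15. In 2i the coating difference was -0.30 (SE 0.18, limma adjusted p = 0.563). The interaction of coating and medium was -1.39 (SE 0.25), with an unadjusted p of 0.000954 and a limma adjusted p of 0.113, so a different medium effect on the 2 coatings was not established over all genes.

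The LN511 call of Gadd45a held without each library in turn. The gelatin call was lost without any 1 gelatin library (limma adjusted p 0.0536 to 0.11). The coating call in Std was lost without any 1 LN511 Std, gelatin Std or gelatin 2i library (0.07 to 0.165) and with the 4 Std libraries alone (0.0749). A long non-coding RNA gene, E230016M11Rik, overlaps Gadd45a over 809 bases, and the files do not say whether reads were counted by strand. It was listed at 0 and 1.62 FPKM in LN511 2i, 0 and 1.34 FPKM in gelatin 2i and 0 in all 4 Std libraries. A 0 can be a failed estimate, and whether reads of E230016M11Rik entered the Gadd45a values was not tested.

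Gadd45b (chromosome 10, 80930091 to 80932204) went another way. It was at 23.9 and 26.3 FPKM in LN511 2i, 17.1 and 31.9 FPKM in gelatin 2i, 25.7 and 27.0 FPKM in LN511 Std and 10.2 and 9.52 FPKM in gelatin Std. Only the gelatin Std libraries were low, and the other 3 groups overlapped. In 2i Gadd45b rose on gelatin by 1.17 on the log2 scale (SE 0.27, limma adjusted p = 0.0309), a ratio of mean levels of 2.49, while on LN511 the difference was -0.07 (SE 0.27, limma adjusted p = 0.888). In LN511 against gelatin the difference in Std was 1.34 (SE 0.27), a ratio of 2.68, and missed the threshold (limma adjusted p = 0.0619). It passed without gelatin 2i replicate 1 (0.0257) or replicate 2 (0.0276), the pair that lay far apart. The gelatin medium call was lost without gelatin 2i replicate 2 (log2 fold change 0.74, limma adjusted p = 0.0634), either gelatin Std library (0.107 and 0.124) or any LN511 library (0.0509 to 0.0587), and with the 4 gelatin libraries alone (0.116). The interaction was -1.24 (SE 0.38) and did not pass (limma adjusted p = 0.271).

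**Figure D3:**
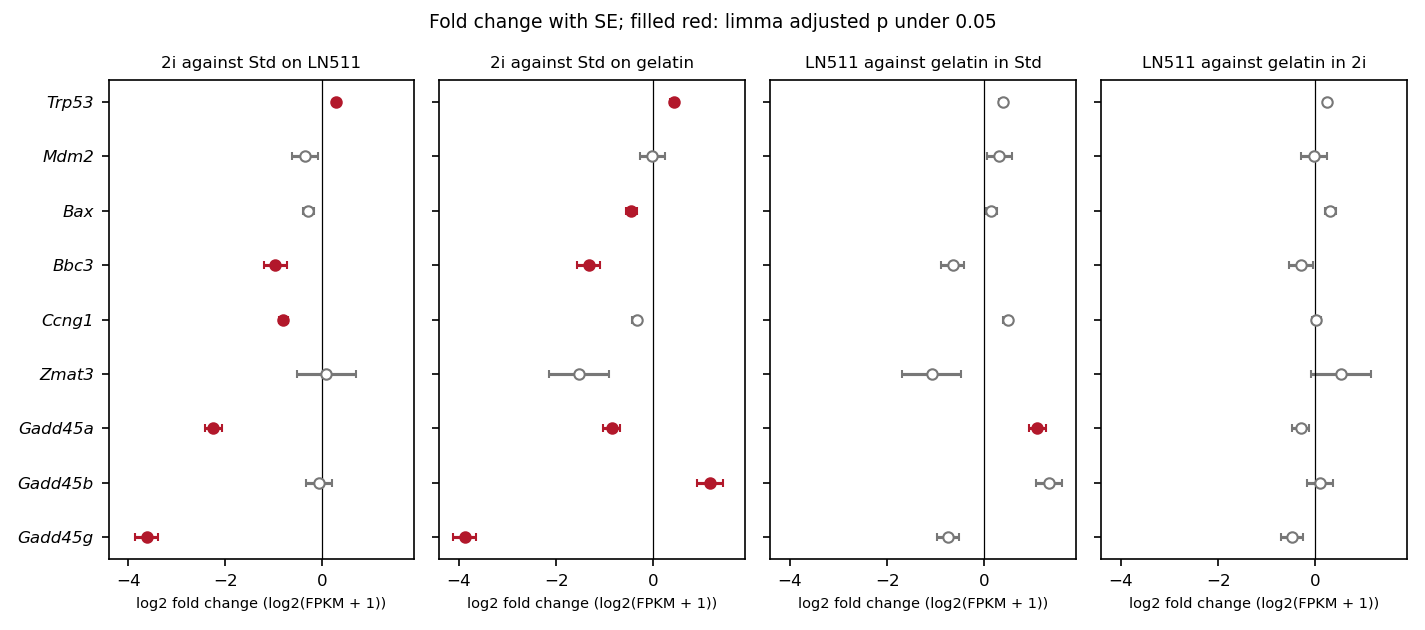
Log2 fold changes with SE of the 9 tested genes in 4 comparisons, from limma over 10278 genes, filled red where the adjusted p is below 0.05. Gadd45g lies farthest left in both medium comparisons (-3.62 and -3.89), and Gadd45a is the only filled point for the coating, at 1.09 in Std.

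Set beside all genes, the 9 tested genes had a median log2 fold change of -0.46 in 2i on gelatin, where the median of all tested genes was 0.00, and of -0.35 on LN511, where it was -0.04. For LN511 against gelatin the medians were 0.31 in Std against 0.05 for all tested genes, and 0.02 in 2i against 0.00. Libraries of the groups compared did not overlap for 8 of 9 genes in 2i against Std on gelatin (59.2% of all tested genes) and for 7 of 9 on LN511 (59.6%). For LN511 against gelatin this held for 6 of 9 genes in Std (49.5%) and 4 of 9 in 2i (42.9%). With 2 libraries a group such separation is common. Without gelatin 2i replicate 1 the fit called 3 of the 9 genes for 2i against Std on gelatin, and without gelatin 2i replicate 2, gelatin Std replicate 1 or gelatin Std replicate 2 it called 1, Gadd45g. Over all 10278 genes these 4 fits called 648, 688, 811 and 767, against 1583 with all libraries. On LN511 it called 3 without LN511 2i replicate 2, either LN511 Std library or either gelatin Std library, where these fits called 1211, 863 and 861, and 1625 and 1620 of all genes, against 1905 with all libraries. For the interaction none of the 9 was called, where 0.185% of all tested genes were (3 of the 9 had an unadjusted limma p below 0.05, and no other setting called any).

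Other p53 targets were called in both directions. Of 28 listed, 24 were tested. In 2i on gelatin 2 rose and 4 fell, with a median log2 fold change of -0.24, and on LN511 2 rose and 4 fell, with a median of -0.39. Of all tested genes 8.2% were called higher and 7.2% lower on gelatin, and 8.58% higher and 9.95% lower on LN511. On each coating the 2 higher of 24 were near those shares and the 4 lower of 24 were above them. The targets were not tested as a set. The cell cycle inhibitor gene Cdkn1a, the best known arrest target of p53, was at 77.9 and 82.8 FPKM in LN511 2i, 78.8 and 74.2 FPKM in gelatin 2i, 34.6 and 35.5 FPKM in LN511 Std and 32.4 and 37.4 FPKM in gelatin Std. It rose in 2i by 1.17 (SE 0.11, limma adjusted p = 0.000919) on LN511 and by 1.11 (SE 0.11, limma adjusted p = 0.00142) on gelatin, the opposite direction to Gadd45a, Gadd45g and Bbc3. Between coatings its log2 difference was 0.01 in Std and 0.07 in 2i (SE 0.11 each, limma adjusted p of 0.978 and 0.845).

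Pmaip1, which encodes the death protein NOXA, fell in 2i on both coatings. It was at 14.1 and 19.8 FPKM in LN511 2i, 30.6 and 30.0 FPKM in gelatin 2i, 60.7 and 59.3 FPKM in LN511 Std and 64.1 and 67.5 FPKM in gelatin Std, with log2 fold changes of -1.78 on LN511 and -1.09 on gelatin (SE 0.16 each, limma adjusted p of 0.000885 and 0.00655). Ddit4, an mTORC1 inhibitor induced by several stresses, fell with log2 fold changes of -1.77 on LN511 and -2.20 on gelatin, and in Std it was lower on LN511 than on gelatin, at 68.5 and 71.0 FPKM against 189 and 178 FPKM (log2 -1.38, SE 0.11, limma adjusted p = 0.0051). Perp, a desmosome and apoptosis gene, was at 5.54 and 3.29 FPKM in LN511 2i, 2.19 and 3.70 FPKM in gelatin 2i, 32.4 and 30.4 FPKM in LN511 Std and 8.64 and 7.41 FPKM in gelatin Std. It fell in 2i by 2.61 on LN511 (limma adjusted p = 0.00207) and by 1.22 on gelatin (0.0359), and was higher on LN511 than on gelatin in Std by 1.85 (0.0349), the same ordering of groups at the top as Gadd45a. Phlda3, an inhibitor of AKT, was higher on LN511 in Std by 0.89 (SE 0.11, limma adjusted p = 0.0179). Sesn1, the sestrin with values, rose in 2i on LN511 by 1.43 (SE 0.33, limma adjusted p = 0.0289), from 2.33 and 2.85 FPKM in Std to 12.1 and 6.14 FPKM in 2i. Psrc1 fell in 2i on gelatin by 1.12 and Ei24 rose there by 0.55 (SE 0.14, limma adjusted p = 0.0409). The calls of these other targets were not checked with libraries left out. For LN511 against gelatin 2 targets were higher and 1 was lower in Std, and none was called in 2i. Of all tested genes 1.54% were called higher and 0.564% lower in Std, and 0.0195% were called in 2i.

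Of 19 regulators and partners of p53, 16 were tested, and among these Mdm4 on LN511 was the 1 call in all comparisons. Of all tested genes 18.5% were called between media on LN511 and 15.4% on gelatin. Atm, Atr and Trp63 were not tested. Atm was at 0.927 and 0.723 FPKM in LN511 2i and listed at 0 in both LN511 Std libraries. On gelatin it was at 7.52 and 8.96 FPKM in 2i and 8.60 and 6.89 FPKM in Std. A 0 can be a failed estimate, so no coating difference is given for Atm. In the BCL2 family, 9 of 12 were tested, and 1 was called higher and 2 lower on each coating. Bad, a promoter of cell death, rose in 2i by 1.08 on LN511 and by 1.41 on gelatin, while Bcl2l11, which encodes the death protein BIM, and the survival gene Mcl1 fell. Bcl2l11 was at 0.496 FPKM and listed at 0 in LN511 2i, 1.31 and 2.74 FPKM in gelatin 2i, 13.3 and 11.6 FPKM in LN511 Std and 8.61 and 8.15 FPKM in gelatin Std. Mcl1 fell by 0.49 on LN511 and by 0.97 on gelatin on the log2 scale (limma adjusted p of 0.0102 and 0.00101). The coating called none of the 9 BCL2 family genes in either medium, where 2.1% of all tested genes were called in Std and 0.0195% in 2i.

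Of 12 genes of the integrated stress response, a pathway that drives some GADD45 and sestrin genes apart from p53, 9 were tested. Asns, the asparagine synthetase gene, was at 571 and 591 FPKM in LN511 2i, 509.8 and 493 FPKM in gelatin 2i, 134 and 131 FPKM in LN511 Std and 125 and 146 FPKM in gelatin Std, and rose by 2.12 and 1.88 on the log2 scale on LN511 and gelatin. Chac1, Cebpb and Atf4 fell on gelatin, and Nupr1 rose on LN511 by 1.80 (SE 0.26, limma adjusted p = 0.0057). Nupr1 was also lower on LN511 than on gelatin in Std by 1.59 (limma adjusted p = 0.0365). The list had a median log2 fold change of -0.09 on LN511 and -0.07 on gelatin, with 2 genes called higher and 0 lower on LN511 and 1 higher and 3 lower on gelatin. Of all tested genes 18.5% were called on LN511 and 15.4% on gelatin, in either direction. The 2 of 9 called higher on LN511 were above the 8.58% of all tested genes called higher there. In either direction the 2 of 9 were near the 18.5% on LN511. On gelatin the 3 of 9 called lower were above the 7.2% of all tested genes called lower. The 1 of 9 called higher there was near the 8.2% called higher. The list was not tested as a set.

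**Figure D4:**
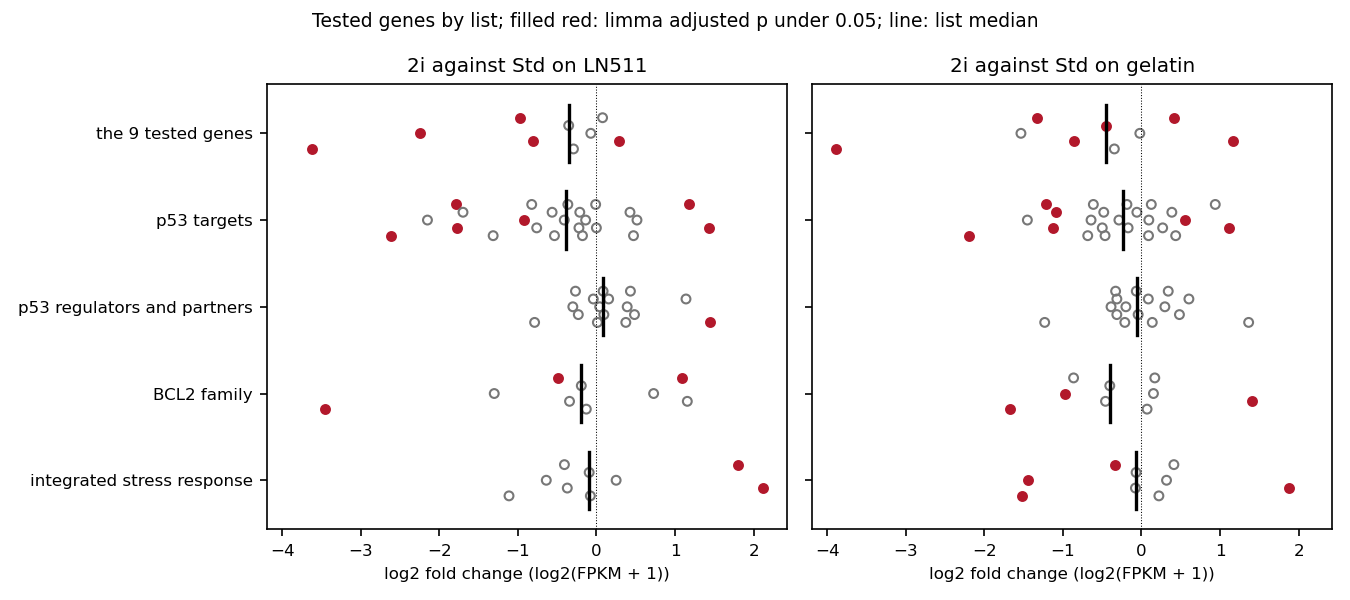
Log2 fold changes of 2i against Std on LN511 (left) and gelatin (right) for the 9 tested genes and the tested members of 4 further lists, each point 1 gene, filled red where the limma adjusted p is below 0.05, with the list median as a line. Calls of both signs stand in 4 of the 5 lists on LN511 or gelatin, with Gadd45g at the far left on both coatings.

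For the 5 tested genes whose group means spanned more than 1 on the log2 scale, the genes most like them were found as the smallest root mean square difference of centred log2(FPKM + 1) over the 8 libraries, among 10277 others. The nearest to Gadd45g were Pim2 (0.24), Dnmt3a (0.41) and Hes6 (0.45), all high in Std and low in 2i on both coatings. The nearest to Gadd45a were Kif5c (0.15), Ddx4 (0.15) and Zyx (0.20), and Zyx was at 4.64 FPKM in LN511 2i, 4.49 FPKM in gelatin 2i, 21.5 FPKM in LN511 Std and 8.17 FPKM in gelatin Std. The nearest to Gadd45b were Wrap53 (0.20), Ccna2 (0.22) and Mira (0.23). Ccna2, the cyclin A2 gene, was at 81.7, 83.8 and 89.0 FPKM in LN511 2i, gelatin 2i and LN511 Std and at 36.4 FPKM in gelatin Std, the same low group as in Gadd45b. The nearest to Bbc3 were Frem2 (0.15), Plod2 (0.17) and Acot1 (0.18), and to Zmat3 they were Hpca (0.26), Vwa2 (0.27) and Inpp5f (0.31).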

How the data were processed

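RNA-seq of 8 libraries was analysed, 2 in each of 4 groups (sample titles write LM511 where the culture labels write LN511). The authors deposited FPKM values for transcripts (RefSeq accessions or numbered assembled transcripts) and for genes. The submitters' processing notes name TopHat2 2.1.1, Cufflinks 2.1.1 and the build mm10. Their settings, annotation, strandedness and scaling across libraries were not given in the sources used here. Of gene values, 47.3% of those that reach 1 FPKM as sums of transcripts stand at 0 in the gene table, and 5 of the 10 genes have a row in it. RefSeq rows were therefore summed per gene (31786 of 32688 matched the RefSeq gene table for GRCm38.p6, which also gave coordinates). The 21844 assembled transcripts name no gene and were left out.

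A filter of 1 FPKM in at least 2 libraries left 11244 genes. Of these, 966 were set aside because 1 replicate was 0 beside a value of 5 FPKM or above, or a whole group was 0 beside a group mean of 5 or above, so 10278 were tested. limma 3.58.1 (R 4.3.3) was run on log2(FPKM + 1) of all 8 libraries with a mean for each group and a variance trend, and the fit was tested on simulated data. The genes and lists were chosen with earlier results of these data known. Context genes named are up to 3 called in each direction per list and comparison, by adjusted p, with Cdkn1a and Mdm4 always. Comparisons of the same medium or coating share libraries. Alternatives were the gene table, a pseudocount of 0.1, no filter, doubtful zeros kept, quantile normalization, only the 4 libraries compared, the replicate number as a block, and each library left out. Calls of context genes outside the group were not followed through these alternatives.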

Additional observations from a re-analysis of the deposited data

How the results depend on the processing

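The deposited gene table kept 1 gene of the group, Gadd45g, which was called for the medium on both coatings (1 and 1) and not for the coating in Std (0). Over all genes that table gave 295 and 326 calls for the medium on gelatin and LN511, 135 and 54 for the coating in Std and 2i and 65 for the interaction, against 1583, 1905, 216, 2 and 19. With only the 4 libraries of a comparison these were 998 and 962 for the medium and 6 and 0 for the coating. In the group 4 genes were then called on gelatin, 3 on LN511 and 0 for the coating in Std. With the replicate number as a block the coating in Std gave 80 calls and 0 in the group, the coating in 2i 0 and the interaction 1. The medium gave 1219 calls on gelatin, with 5 in the group, and 1497 on LN511, with 3 in the group. With the block Trp53, Bbc3 (both on LN511), Bax (on gelatin) and Gadd45a (coating in Std) had limma adjusted p of 0.062, 0.0544, 0.0685 and 0.0591. Differences between replicates correlated between groups at -0.0199 to 0.0193 over all tested genes, which gave no sign of pairing by replicate number. Whether equal numbers shared a culture or batch is not given in the sources used here. With no filter the coating in 2i gave 15 and the interaction 31 calls, with doubtful zeros kept 42 and 53, and with a pseudocount of 0.1 the coating in 2i gave 0. Leaving out 1 library gave 648 to 1516 calls for the medium on gelatin, 861 to 1625 on LN511, 9 to 199 and 0 to 12 for the coating in Std and 2i and 0 to 11 for the interaction. In the group these were 1 to 5, 3 to 4, 0 to 2, 0 to 0 and 0 to 0. Directions that turned were all of differences that were not called. With a pseudocount of 0.1 the Gadd45g interaction was -0.23. On leaving out 1 library Mdm2 ran from -0.38 to 0.34 for the medium on gelatin, -0.0530 to 0.67 and -0.10 to 0.0454 for the coating in Std and 2i and -0.69 to 0.0279 for the interaction. For the coating in 2i Ccng1 ran from -0.0246 to 0.0596, Bbc3 from -0.59 to 0.00626 and Gadd45b from -0.34 to 0.52, and Zmat3 ran from -0.98 to 1.14 for the medium on LN511. The cause was not tested.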
